A study of Mus musculus with 19 samples.

Results

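The genes described here are the motile cilia genes measured in mouse ovaries that lack the Hedgehog ligands Dhh and Ihh. They were chosen by name: Foxj1, Dynlrb2 and every gene whose annotated symbol begins with Dnah, Dnai, Dnal, Rsph, Tekt or Cfap. Each gene was read from the probe set with the highest mean over all arrays among those annotated to that gene alone, which gave 53 genes of the 18193 measured: 25 Cfap, 10 Dnah, 6 Rsph, 5 Tekt, 3 Dnal and 2 Dnai genes besides Foxj1 and Dynlrb2. Total ovary RNA from mice aged 2 months was hybridised to 19 arrays. The groups were 3 arrays of ovaries deleted for both Dhh and Ihh (Dhh/Ihh DKO, here DKO), 4 arrays labelled Dhh KO, 4 arrays labelled Ihh KO and 8 control arrays of Ihh_Dhh_dhet ovaries, taken here as heterozygous for both genes. The labels describe the deletion as specific to the ovary and name neither the Cre line nor the number of mice behind an array. The p-values therefore measure only the spread between these arrays, pooled over the groups of a fit, and that spread may be technical. Motile cilia transcripts are found in the ciliated epithelium of the oviduct, among other places. The comparisons ask whether they differ between mutant and control arrays, and whether the DKO arrays differ among themselves.

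Motile cilia are the beating cilia of multiciliated cells, and in the female tract they line the oviduct and help to move the egg. Their movement comes from axonemal dyneins, motors that slide the paired microtubules of the cilium against each other, under the control of radial spokes that reach towards its centre. Foxj1 is the transcription factor that switches on many of these genes, together with RFX factors that bind X-box motifs. Most cells of the ovary carry at most a primary cilium, which lacks these motors. The hedgehog ligands Dhh and Ihh are made by granulosa cells and signal to theca and stroma.

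All arrays had the same trimmed mean signal of 500, by the scaling of the deposited values, and their median signals lay between 101 and 159.8. For BioC, a hybridisation control, the 3'/5' probe set ratio was 0.987 to 1.06 on the DKO arrays and controls 1 to 4, and 0.685 to 0.781 on the single knockouts and controls 5 to 8. Each mutant is therefore set against the controls of its own set, 1 to 4 or 5 to 8. For Gapdh, where the 3'/5' ratio follows RNA quality, it was 1.68 to 1.78 on the DKO arrays and 1.69 to 1.80 on controls 1 to 4. In the other set it was 2.08 to 2.79 on Dhh KO, 1.90 to 2.37 on Ihh KO and 1.89 to 2.02 on controls 5 to 8. Control arrays of the sets deviated from their means alike in matched pairs (1 with 5, 2 with 6, 3 with 7 and 4 with 8, r across genes of 0.537 to 0.770, other pairs -0.635 to 0.163), so the 8 control arrays may hold fewer than 8 separate RNA samples. The granulosa cell gene Foxl2 had a signal of 3575 to 5143 over all 19 arrays.

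The deleted genes were read on every array. Dhh had signals of 3.85, 4.28 and 14.2 on DKO 1 to 3, 13.2, 5.14, 18.8 and 25.4 on Dhh KO 1 to 4, and 944, 606, 1371 and 1311 on controls 1 to 4 and 811, 621, 1077 and 1085 on controls 5 to 8. It read 709, 527, 636 and 2.96 on arrays labelled Ihh KO 1 to 4, so the array labelled Ihh KO 4 had the low Dhh of a Dhh knockout and goes against its label. Ihh had signals of 51.6, 36.3 and 52.7 on DKO 1 to 3, 12.5, 35.1, 43.5 and 108 on arrays labelled Ihh KO 1 to 4, 145, 108, 168 and 139 on Dhh KO 1 to 4, 200.2, 180.4, 139 and 426 on controls 1 to 4 and 225, 238, 160.0 and 206 on controls 5 to 8. Counts and fitted differences of Ihh KO are given with and without the array labelled Ihh KO 4.

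Promoters are shown because several of these genes carry the same short motif. Promoter windows of 300 bases, 250 before the start and 50 after it (RefSeq, GRCm38.p6), were found for 44 of the 53 genes, 50 windows in all. The X-box half-site GTTGCC, searched on both strands, stood in 12 of the 50 windows (24.0%), against 12.5% of all 32851 windows. These windows belong to 11 genes, whose log2 differences of DKO from controls ran from 0.06 (Cfap20) to 2.51 (Dynlrb2). A link between the motif and the level was not tested. The forkhead motif GTAAACA, searched likewise, stood in 4 of the 50 (8.0%), against 3.65%. The promoter of 1 gene, Cfap20, held both motifs. Windows to print were picked among those that hold the half-site. The 250 bases before the start are printed for 3 genes that were high on DKO 3 (Dynlrb2, Tekt1 and Cfap161) and for Cfap298, which has the most half-sites of these 4 windows and whose signal differed little between groups. Capitals mark the half-sites, and none of these windows holds the forkhead letters.
Dynlrb2, chr8:116504765-116505014, + strand: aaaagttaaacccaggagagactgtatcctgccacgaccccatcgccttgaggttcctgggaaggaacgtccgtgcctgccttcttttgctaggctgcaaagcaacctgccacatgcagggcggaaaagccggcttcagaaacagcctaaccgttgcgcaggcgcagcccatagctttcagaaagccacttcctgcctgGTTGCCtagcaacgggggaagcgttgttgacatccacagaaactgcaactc
Tekt1, chr11:72361883-72362132, - strand: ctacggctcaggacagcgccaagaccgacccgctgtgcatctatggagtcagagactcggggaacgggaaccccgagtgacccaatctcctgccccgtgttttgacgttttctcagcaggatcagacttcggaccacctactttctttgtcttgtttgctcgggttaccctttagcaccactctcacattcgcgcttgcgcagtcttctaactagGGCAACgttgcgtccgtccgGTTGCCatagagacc
Cfap161, chr7:83794840-83795089, - strand: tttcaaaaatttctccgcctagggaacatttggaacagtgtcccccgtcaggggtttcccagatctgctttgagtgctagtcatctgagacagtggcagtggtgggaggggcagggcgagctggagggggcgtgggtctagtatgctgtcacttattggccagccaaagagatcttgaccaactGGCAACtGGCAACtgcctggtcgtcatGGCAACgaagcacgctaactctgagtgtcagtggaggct
Cfap298, chr16:90934850-90935099, - strand: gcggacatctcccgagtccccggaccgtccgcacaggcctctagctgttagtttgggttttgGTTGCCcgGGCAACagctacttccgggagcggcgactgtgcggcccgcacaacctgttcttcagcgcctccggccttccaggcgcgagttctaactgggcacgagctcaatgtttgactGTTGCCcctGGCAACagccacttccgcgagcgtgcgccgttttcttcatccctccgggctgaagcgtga
The single half-site of Dynlrb2 begins 51 bases before its start, those of Tekt1 35 and 15 bases, and those of Cfap161 66, 59 and 39 bases before. Cfap298 has half-sites on opposite strands that begin 188 and 180 bases before its start and another such pair at 69 and 60 bases.

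In DKO ovaries the motile cilia genes stood high on one array, moderately high on another and at control levels on the third. The median difference of the 53 genes from the mean of controls 1 to 4, on the scale log2(signal + 7.018), came to 0.48 for DKO 1, 0.00 for DKO 2 and 2.19 for DKO 3, against 0.14, -0.08, -0.06 and -0.07 on controls 1 to 4. Averaged over the 3 arrays, 48 of the 53 genes were above the controls and 5 below, with a median log2 difference of 0.87 and a range of -0.78 to 2.75, while the median of all genes was 0.05. With the arrays spread this widely, 1 gene, the radial spoke gene Rsph3a, was called higher (limma, adjusted p under 0.05 over 18193 genes) and 0 lower, against a background of 1.12% of all genes called higher and 0.951% lower. At an unadjusted p under 0.05, 25 of the 53 were higher and 0 lower, against 9.37% and 5.45% of all genes. A bulk array cannot tell more ciliated cells from more RNA in each such cell.

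**Figure D1:**
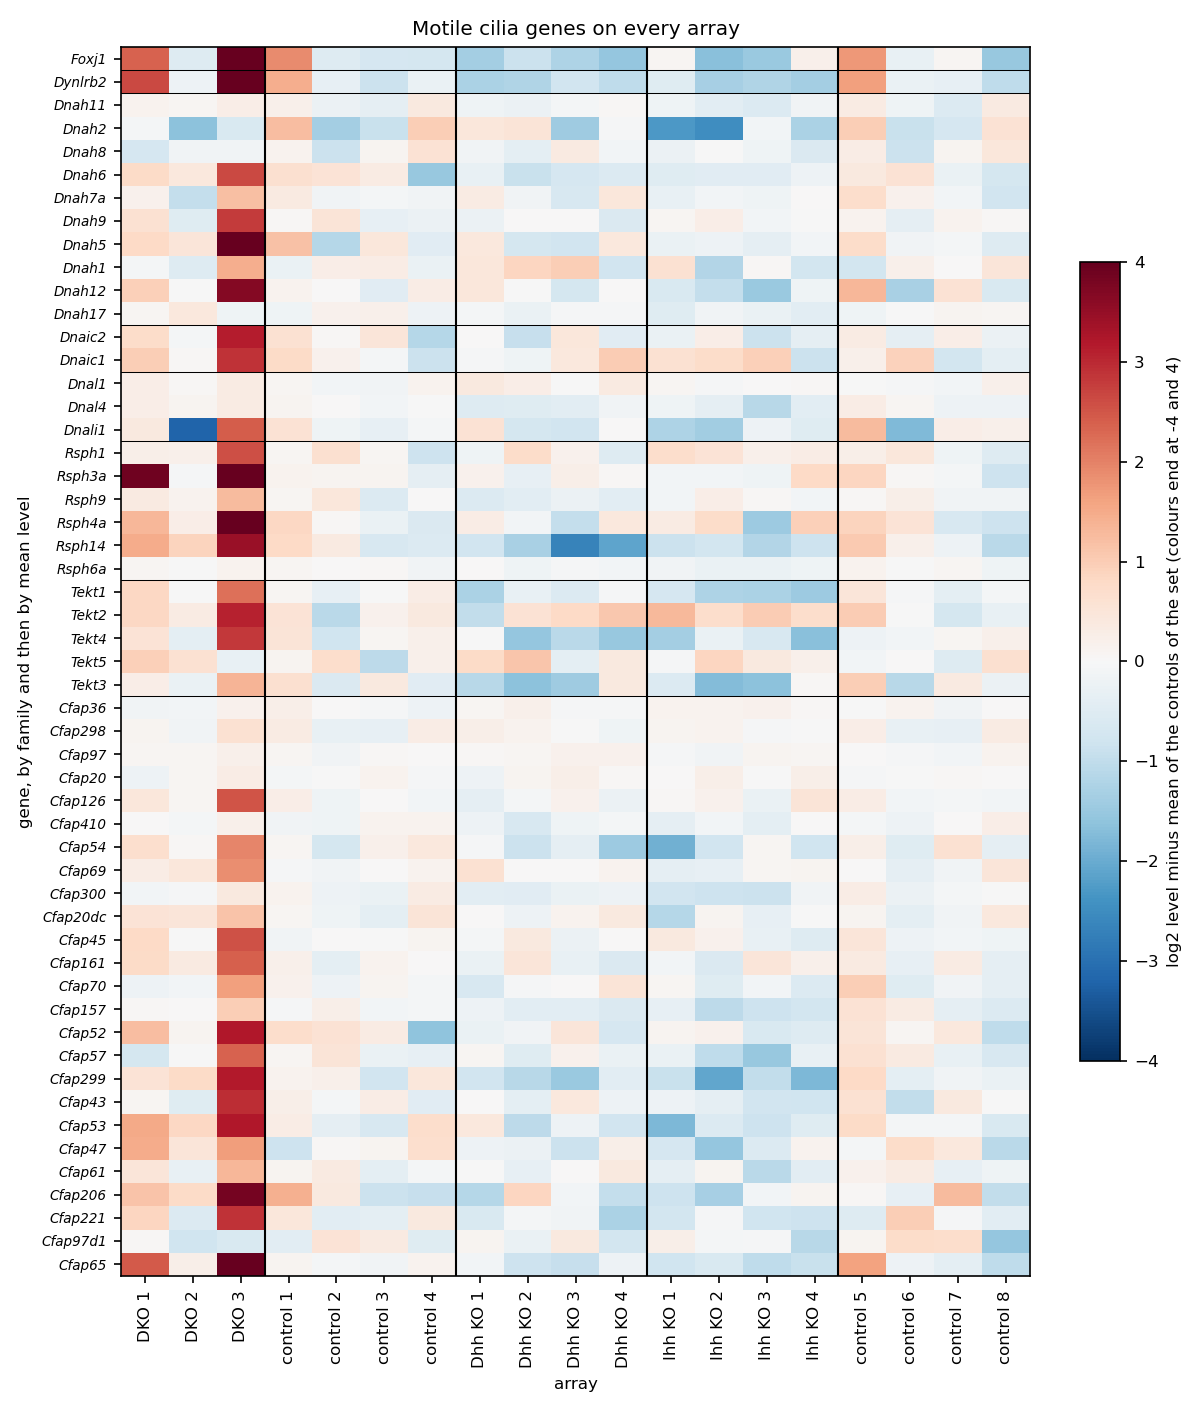
Each row is 1 of the 53 motile cilia genes, ordered by family and then by mean level, and each column 1 array; the colour gives the log2 level minus the mean of the controls of the same set, and colours end at -4 and 4. The DKO 3 column is red for most genes, DKO 1 is paler, and DKO 2 resembles the controls; controls 1 and 5 are slightly red.

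Foxj1, the switch of the programme, had signals of 64.4, 2.54 and 667 on DKO 1, 2 and 3, against 44.5, 2.55, 1.70 and 1.39 on controls 1 to 4. DKO 3 was above every other array, DKO 1 was above control 1, and DKO 2 lay among controls 2 to 4. The means were 245 ± 367 in DKO (SD, n = 3) and 12.5 ± 21.3 in controls 1 to 4 (SD, n = 4). The log2 difference of 2.49 (SE 1.02, adjusted p = 0.25) did not pass the limma test. Foxj1 signals on DKO 2 and controls 2 to 4 lay below the 7.018 added before taking logs, so the size of this difference depends on that value. Dynlrb2, a light chain of cytoplasmic and ciliary dynein, had signals of 488, 62.3 and 2641 on DKO 1 to 3, against 209, 56.7, 36.6 and 58.2 on controls 1 to 4. DKO 3 was again the highest array and control 1 the highest control, and DKO 2 lay just above controls 2 to 4. Its means were 1064 ± 1382 in DKO (SD, n = 3) and 90.2 ± 80.0 in controls 1 to 4 (SD, n = 4), a log2 difference of 2.51 (SE 0.84, adjusted p = 0.142).

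The dynein heavy chains are the motors themselves. Of the 10 Dnah genes 8 were above the controls on average and 2 below, and 0 were called. At an unadjusted limma p under 0.05, 3 were higher, against 9.37% of all genes. Dnah5, a motor of the outer arms, had signals of 33.7, 25.8 and 400.3 on DKO 1 to 3, against 45.3, 3.47, 24.7 and 10.1 on controls 1 to 4, a log2 difference of 1.81 (SE 0.67, adjusted p = 0.194). Dnah6, a motor of the inner arms, read 103, 80.4 and 401 on DKO 1 to 3, against 94.9, 87.5, 74.2 and 15.8 on controls 1 to 4, a log2 difference of 1.28 (SE 0.50, adjusted p = 0.223). For both genes DKO 3 stood far above the controls, while DKO 1 and DKO 2 lay within or close to the controls' range. Dnah1, Dnah7a and Dnah17 differed less, with log2 differences of 0.29, 0.14 and 0.10. The genes with the highest mean signals, Dnah11 and Dnah2, did not stand out on DKO 3. Dnah11, also an outer arm motor, read 1104, 1056 and 1200.3 on DKO 1 to 3, against 1153, 861, 784 and 1316 on controls 1 to 4, and the groups overlapped (log2 difference 0.15, SE 0.20, adjusted p = 0.799). Dnah2, an inner arm motor, read 229.9, 72.3 and 155 on DKO 1 to 3, against 584, 90.9, 129 and 487 on controls 1 to 4 (log2 difference -0.78, SE 0.70, adjusted p = 0.675), so that 2 of the controls were above every DKO array. A probe set shared by Dnah7b and Dnah7c, which belongs to no single gene and was not counted, read 529, 1280.3 and 2021 on DKO 1 to 3, against 256, 422, 434 and 512 on controls 1 to 4. There all 3 DKO arrays were above every control, DKO 2 included.

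The intermediate chains Dnaic1 and Dnaic2, which hold the outer arm to the microtubule, were far above the controls on DKO 3 and close to them on the others. Dnaic1 read 28.6, 11.5 and 129 on DKO 1 to 3, against 24.0, 13.6, 10.01 and 2.90 on controls 1 to 4 (log2 difference 1.30, SE 0.59, adjusted p = 0.305). Dnaic2 read 21.8, 9.49 and 145 on DKO 1 to 3, against 19.2, 10.7, 17.2 and 0.877 on controls 1 to 4 (log2 difference 1.27, SE 0.57, adjusted p = 0.3). DKO 1 was just above the highest control for both genes. A second probe set of Dnaic1 read 25.8, 7.39 and 144 on DKO 1 to 3, against 7.44 to 19.3 on controls 1 to 4. A second probe set of Dnaic2 showed no rise, with 5.81, 3.79 and 8.77 on DKO 1 to 3, against 2.21 to 21.6. Of the light chains, Dnal1, which binds the outer arm motors, read 680.2, 586 and 708 on DKO 1 to 3, against 605, 525, 518 and 629 on controls 1 to 4 (log2 difference 0.21, SE 0.12, adjusted p = 0.451). Dnal4 read 482, 431 and 499.8 on DKO 1 to 3, against 430.4, 402, 368 and 396 on controls 1 to 4 (log2 difference 0.23, SE 0.19, adjusted p = 0.624). All DKO arrays were above the controls for Dnal4, by a small margin on DKO 2, and for Dnal1 DKO 2 lay within the controls' range. Dnali1, the light intermediate chain of the inner arms, was the widest of the 3 Dnal genes, with 7.50 on DKO 2 and 713 on DKO 3.

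Radial spoke genes gave the one call. Rsph3a, a spoke stalk protein, read 2144, 134 and 2401 on DKO 1 to 3, against 154, 148, 148 and 107 on controls 1 to 4. DKO 1 and DKO 3 were far above the controls, and DKO 2 lay inside their range. The means were 1559.6 ± 1241 in DKO (SD, n = 3) and 139 ± 21.9 in controls 1 to 4 (SD, n = 4), and Rsph3a rose by a log2 difference of 2.64 (SE 0.65, adjusted p = 0.0415). On DKO 1 alone its log2 level was 3.89 above the control mean, the largest difference of the 53 on that array. A second probe set of Rsph3a gave the same order with less height: 499, 135 and 755 on DKO 1 to 3, against 177, 192, 191 and 142 on controls 1 to 4. A probe set that Rsph3a shares with its near copy Rsph3b read 2388, 2782 and 3024 on DKO 1 to 3, against 3018, 3063, 2442 and 2536 on controls 1 to 4, with overlapping groups. The call did not hold when the probe sets of a gene were averaged (log2 difference 1.85, limma adjusted p = 0.0685) or when the fit used only the arrays of the set (2.64, adjusted p = 0.237).

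Rsph1, a spoke head protein, read 214, 210.5 and 1134 on DKO 1 to 3, against 192, 291, 194 and 100.1 on controls 1 to 4 (log2 difference 1.01, SE 0.46, adjusted p = 0.312), and DKO 3 alone left the controls' range. Rsph14 read 31.3, 18.5 and 143 on DKO 1 to 3, against 16.9, 10.7, 1.80 and 2.32 on controls 1 to 4 (log2 difference 1.95, SE 0.58, adjusted p = 0.0951), with all DKO arrays above the controls, DKO 2 by the least. Rsph4a, another spoke head protein, read 70.5, 30.1 and 661 on DKO 1 to 3, against 47.4, 24.7, 18.4 and 13.4 on controls 1 to 4, and Rsph9 read 212, 180.3 and 402 on DKO 1 to 3, against 173, 225, 109 and 163 on controls 1 to 4. The sixth gene, the testis form Rsph6a, read 0.681 to 2.32 on the 7 arrays of this set. All 6 Rsph genes were above the controls on average, with a median log2 difference of 1.48.

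Tektins, filaments in the wall of the ciliary microtubules, were above the controls on average in 5 of 5 genes, and 0 were called. Tekt1 read 101, 53.3 and 269.9 on DKO 1 to 3, against 56.3, 40.9, 52.8 and 67.5 on controls 1 to 4 (log2 difference 1.01, SE 0.40, adjusted p = 0.227). Tekt2 read 38.2, 24.5 and 209 on DKO 1 to 3, against 29.8, 4.88, 21.6 and 25.9 on controls 1 to 4 (log2 difference 1.41, SE 0.60, adjusted p = 0.271). DKO 1 and DKO 3 were above the controls for both genes, and DKO 2 lay within their range.

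The Cfap symbol groups proteins by where they are found and so mixes roles. Of the 25 genes 23 were above the controls on average and 2 below, and 0 were called. At an unadjusted limma p under 0.05, 11 were higher, against 9.37% of all genes. Cfap53, a protein inside the ciliary microtubules that is also needed for the left-right axis, read 45.4, 25.9 and 162 on DKO 1 to 3, against 15.8, 7.35, 4.96 and 23.0 on controls 1 to 4 (log2 difference 1.84, SE 0.52, adjusted p = 0.0753). Cfap65, known for the sperm tail, read 46.9, 4.53 and 451 on DKO 1 to 3, against 3.52, 2.20, 1.82 and 3.74 on controls 1 to 4 (log2 difference 2.75, SE 0.78, adjusted p = 0.0803). Its signals on all 4 controls and DKO 2 lay below the 7.018 added before taking logs, so the size of the difference depends on that value (1.74 with 29.4 added and 4.09 with none). For both genes all 3 DKO arrays were above the controls, DKO 2 by the least. Cfap161, whose promoter is printed above with 3 half-sites, read 169, 124 and 528 on DKO 1 to 3, against 112, 71.7, 105 and 97.5 on controls 1 to 4, again with every DKO array above the controls. The Cfap genes with the highest means over all arrays, Cfap36 and Cfap298, showed little difference. Cfap36 read 1336, 1363 and 1673 on DKO 1 to 3, against 1725, 1499, 1412 and 1284 on controls 1 to 4 (log2 difference -0.02, SE 0.11, adjusted p = 0.962). Cfap298, which helps to assemble dynein arms before they enter the cilium, read 1275, 1065 and 1803 on DKO 1 to 3, against 1478, 951, 937 and 1439 on controls 1 to 4 (log2 difference 0.20, SE 0.20, adjusted p = 0.725). The groups overlapped for Cfap36, and for Cfap298 only DKO 3 was above the controls. The sign of either difference rests on single arrays: Cfap36 stood at 0.05 without control 1, 0.04 without DKO 1 and 0.02 without DKO 2, and Cfap298 at -0.01 without DKO 3.

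**Figure D2:**
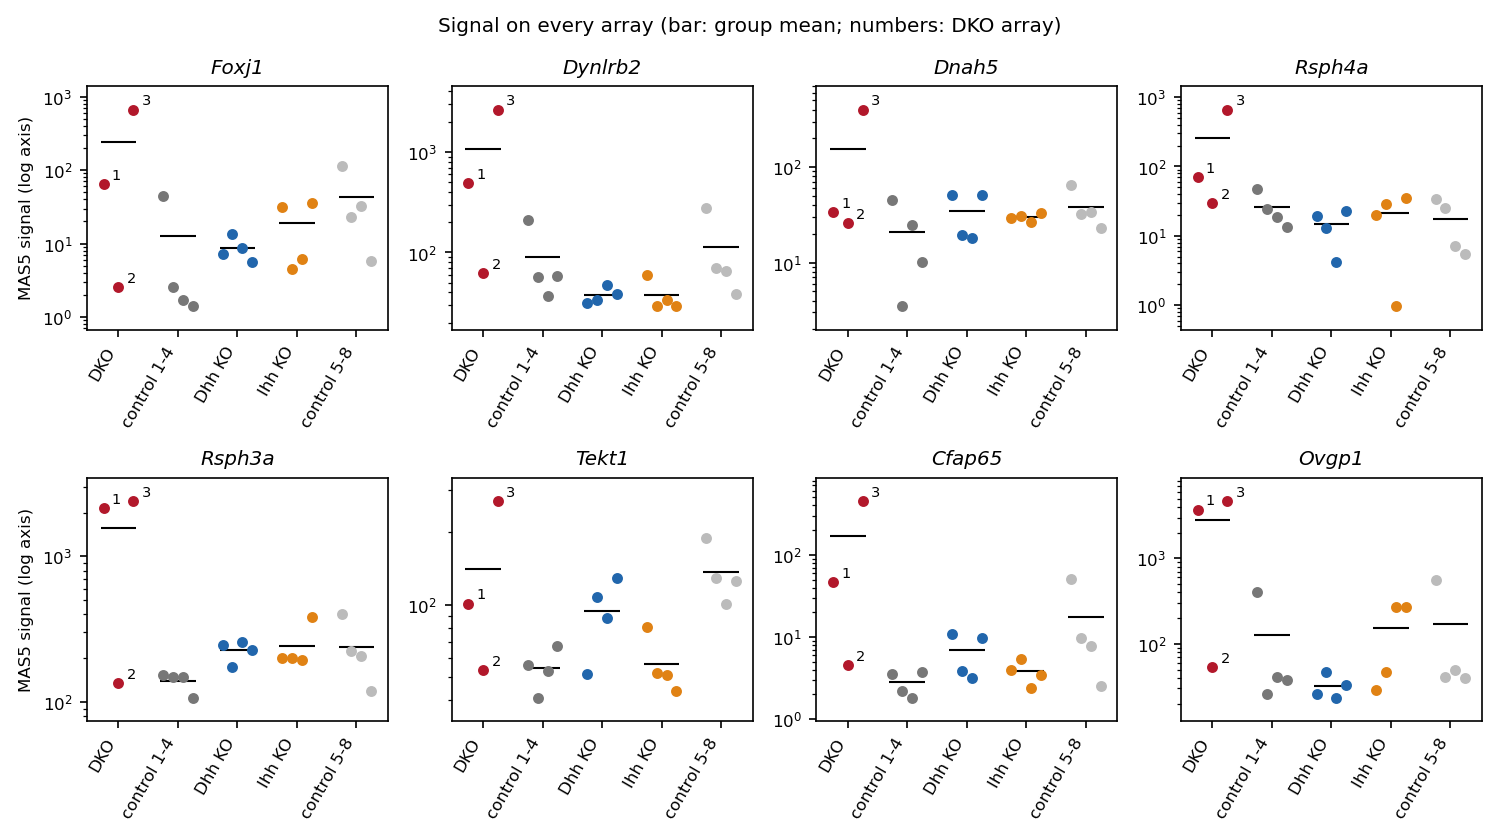
Signal of 7 motile cilia genes and of Ovgp1 on every array, each point 1 array on a log axis, with the mean of each array group as a bar and the DKO arrays numbered. DKO 3 is the highest of the 19 arrays in every panel; for Rsph3a and Ovgp1 DKO 1 lies close to it, while DKO 2 lies within the controls in most panels.

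By level the list was mixed. Cfap126, the fifth of the Cfap genes by mean level, read 648, 500.3 and 2762 on DKO 1 to 3, against 574, 420.3, 475 and 441 on controls 1 to 4, far above the controls on DKO 3. In the 27 genes with the higher mean level the median log2 difference came to 0.27 for DKO 1, 0.03 for DKO 2 and 1.27 for DKO 3, and in the 26 with the lower level it was 0.77, -0.01 and 2.90. Of the 53 genes 29 had a mean level under the 40th percentile of all probe sets, a signal of about 69.3. The genes at or below the controls on DKO 3 were 5: Dnah2, Dnah8, Dnah17, Tekt5 and Cfap97d1, named after their values were seen.

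Array by array, 31 of the 53 genes were above every one of controls 1 to 4 for DKO 1, 8 for DKO 2 and 46 for DKO 3, against 24.4%, 26.4% and 29.9% of all genes. Their summed signal was 13643, 9791 and 27983 on DKO 1 to 3, against 9130 to 11659 on controls 1 to 4. Rsph3a alone gave 2144 of the sum on DKO 1, against 107 to 154 on controls 1 to 4. DKO 3 was the highest of the DKO arrays for 48 of the 53 genes (90.6%, against 39.2% of all genes), and the order DKO 3, DKO 1, DKO 2 held for 41 (77.4%, against 20.1%). DKO 3 was also the highest of all 19 arrays for 39 of the 53, against 12.4% of all genes. All 3 DKO arrays were above every control for 7 genes, Cfap53, Cfap65, Cfap69, Cfap161, Cfap299, Dnal4 and Rsph14, against 7.92% of all genes, and all were below for 0, against 4.75%. The same count within the controls shows how far single control arrays differ: control 1 was above the other 3 of its set for 26 of the 53 genes (22.6% of all genes) and control 5 for 28 (35.6%), while controls 2 to 4 were above for 8, 4 and 15 (27.0%, 23.1% and 27.4%) and controls 6 to 8 for 9, 5 and 11 (21.6%, 18.4% and 24.4%).

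**Figure D3:**
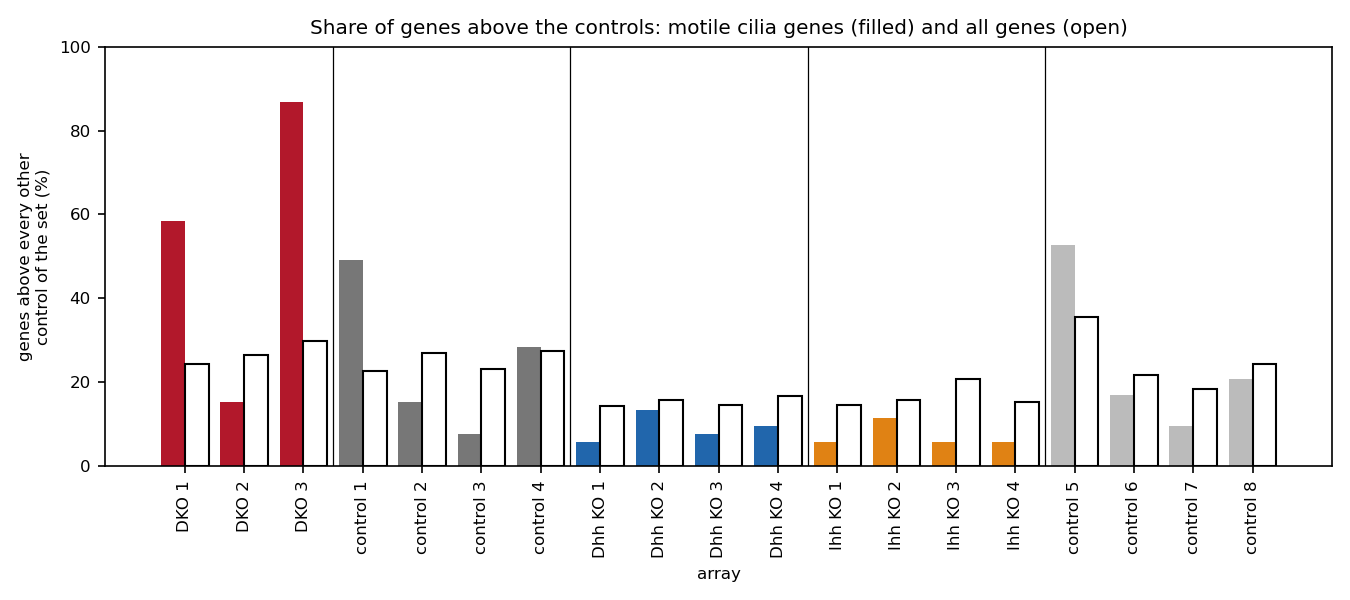
Share of genes above every other control of the same set, in percent, on each array: filled bars are the 53 motile cilia genes and open bars all 18193 genes. The filled bar reaches 58.5% for DKO 1, 15.1% for DKO 2 and 86.8% for DKO 3, then 49.1% and 52.8% for controls 1 and 5, and at most 13.2% for the single knockouts.

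The calls depended on which DKO array was in the fit. Without DKO 2, 9 of the 53 genes were called higher (Foxj1, Dynlrb2, Dnah9, Rsph3a, Rsph14, Cfap45, Cfap53, Cfap65 and Cfap126), against 1.47% of all genes, and the median log2 difference was 1.41. Foxj1 then stood at a log2 difference of 3.99 (SE 0.92, limma adjusted p = 0.0272), Dynlrb2 at 3.86 (SE 0.70, adjusted p = 0.00777) and Cfap65 at 4.00 (SE 0.66, adjusted p = 0.00375). The sizes for Foxj1 and Cfap65 depend on the 7.018 added before taking logs. DKO 2 is the DKO array at control levels for these genes, so leaving it out lowers the spread that the test measures. These calls and p-values therefore do not count as support for a difference. A second probe set of Dnah9 showed no rise, with 16.6, 11.1 and 13.3 on DKO 1 to 3, against 11.9 to 33.7 on controls 1 to 4. Without DKO 1, 0 were called, against 1.08% of all genes called higher. Without DKO 3, 0 were called, against 0.335%, and the median was 0.24. Leaving out any 1 of controls 1 to 4 also ended the call of Rsph3a (adjusted p from 0.0688 to 0.0929).

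**Figure D4:**
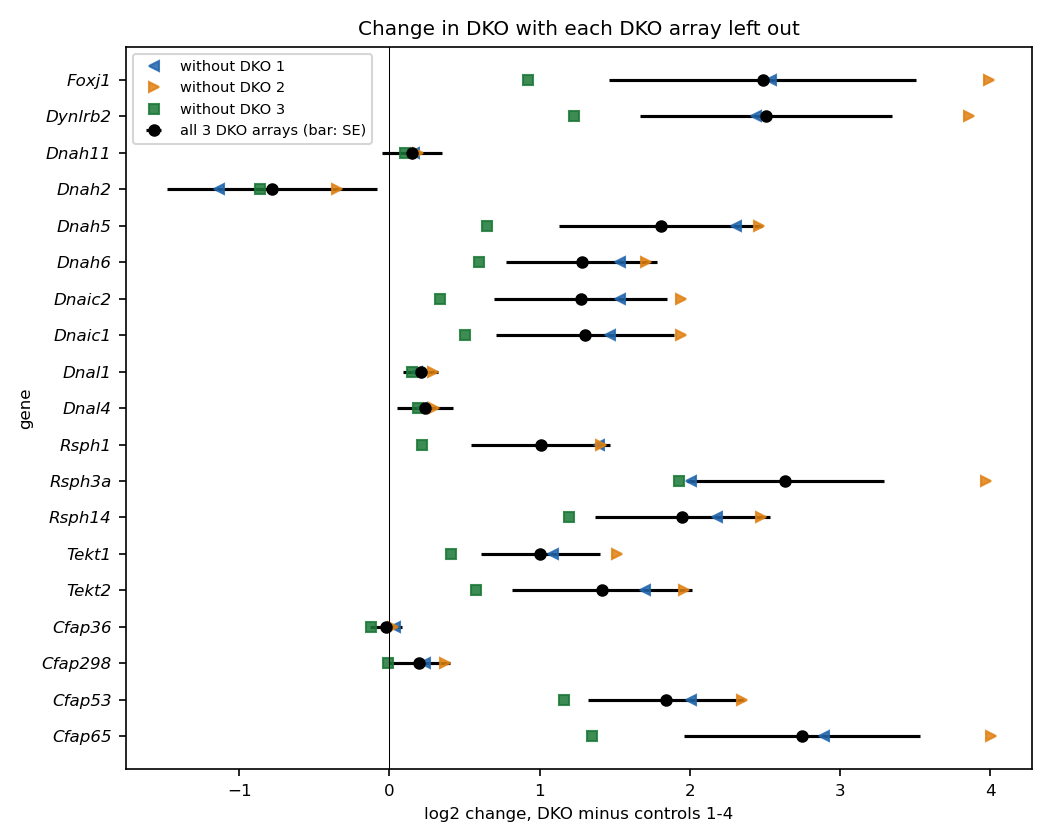
Log2 difference of DKO from controls 1 to 4 for the 19 named genes, with all 3 DKO arrays (black, bars give the SE) and with each DKO array left out (coloured symbols). Without DKO 3 most genes move towards 0, to 0.92 for Foxj1 and 1.35 for Cfap65, and without DKO 2 most move away from it.

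Genes of multiciliated cells outside the naming rule followed the same arrays. Of 60 such genes 49 had a probe set of their own, 47 of them above the controls on average, with a median log2 difference of 0.89. Their median came to 0.70 for DKO 1, 0.18 for DKO 2 and 2.06 for DKO 3, against 0.28 on control 1 and -0.09 to 0.00 on controls 2 to 4. The 2 called higher, against 1.12% of all genes, were Nme5, a radial spoke protein, and Enkur, a protein of the sperm tail and cilium. Nme5 read 379.6, 240.3 and 1686 on DKO 1 to 3, against 209, 146, 132 and 165 on controls 1 to 4 (log2 difference 1.70, SE 0.41, adjusted p = 0.0355). Enkur read 143, 94.7 and 649 on DKO 1 to 3, against 46.1, 36.0, 35.2 and 68.7 on controls 1 to 4 (log2 difference 2.05, SE 0.50, adjusted p = 0.0366). Both genes rose, and all 3 DKO arrays were above the controls. The markers of ciliated cells were less uniform: Tppp3 read 379, 213 and 1135 on DKO 1 to 3, against 522, 181, 210.1 and 310.4 on controls 1 to 4, and Ccno read 340.1, 411 and 569 on DKO 1 to 3, against 371, 237, 363 and 536 on controls 1 to 4, with overlapping groups for both. Mcidas and Gmnc had no probe set of their own. Of 25 genes that primary and motile cilia share, such as those of intraflagellar transport, 0 were called higher, against 1.12% of all genes, 22 were above the controls on average and 3 were higher at an unadjusted p under 0.05, against 9.37% of all genes. Their median stood at 0.06, 0.08 and 0.37 on DKO 1 to 3.

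Oviduct epithelium has secretory cells beside the ciliated ones, and their listed genes had a median of 1.12 on DKO 1, 0.69 on DKO 2 and 1.71 on DKO 3. Ovgp1, the oviduct glycoprotein, read 3729.7, 53.6 and 4679 on DKO 1 to 3, against 409, 26.0, 40.4 and 38.2 on controls 1 to 4. DKO 1 and DKO 3 were far above the controls, DKO 2 was above 3 of the 4, and control 1 was the high control, as for Foxj1 and Dynlrb2. The log2 difference of 3.79 (SE 1.27, adjusted p = 0.142) did not pass. Pax8, a transcription factor of the secretory cells, read 16.0, 10.2 and 32.7 on DKO 1 to 3, against 1.12, 2.27, 16.0 and 8.90 on controls 1 to 4, low on every array. Of the 10 secretory genes listed, 10 were above the controls on average. Called higher were 4, Plet1, Wfdc2, Epcam and Cldn4, against 1.12% of all genes.

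Plet1, a surface protein of epithelial progenitors, read 1949, 227 and 3456 on DKO 1 to 3, against 249, 41.9, 65.2 and 87.7 on controls 1 to 4 (log2 difference 3.60, SE 0.70, adjusted p = 0.01). Wfdc2, a secreted protein of reproductive tract epithelium, read 699, 139 and 1691 on DKO 1 to 3, against 82.5, 72.4, 58.9 and 65.5 on controls 1 to 4 (log2 difference 2.87, SE 0.54, adjusted p = 0.00824). Epcam, an adhesion protein of epithelia, read 1029, 1111 and 1789 on DKO 1 to 3, against 477, 449, 772 and 402 on controls 1 to 4 (log2 difference 1.31, SE 0.26, adjusted p = 0.0114), and Cldn4, a tight junction protein, rose by 1.31 at low signals, 25.7, 18.5 and 26.5 on DKO 1 to 3, against 3.71, 2.72, 3.91 and 12.5 on controls 1 to 4. The summed signal of the 10 secretory genes was 8769, 2532 and 14119 on DKO 1 to 3, against 1303 to 2046 on controls 1 to 4. Their part in the higher signals of the motile cilia genes was not tested. The median of the secretory list was above the controls on DKO 2 too, where the median of the motile cilia genes was 0.00, and Epcam and Krt7, a keratin, were higher on DKO 2 than on DKO 1 (log2 differences 1.12 and 1.01 for Epcam, 1.17 and 0.77 for Krt7).

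Genes of other ovarian cell types also differed in DKO, and their part in the motile cilia result was not tested. Of 9 genes of the ovarian surface epithelium and mesothelium, Krt8 and Krt18 were called higher, against 1.12% of all genes. The list's median was 0.44, 1.05 and 0.75 on DKO 1 to 3, highest on DKO 2. Krt8 read 1513, 1558 and 2202 on DKO 1 to 3, against 1056, 738, 699 and 964 on controls 1 to 4 (log2 difference 1.02, SE 0.18, adjusted p = 0.00466). Krt18 read 1619, 1495 and 2649 on DKO 1 to 3, against 870.1, 733, 768 and 507 on controls 1 to 4 (log2 difference 1.39, SE 0.21, adjusted p = 0.00191). Among 3 genes of theca and steroid synthesis Star and Cyp11a1 were called lower, against 0.951% of all genes. Star, which moves cholesterol into mitochondria, read 2289, 2738 and 666 on DKO 1 to 3, against 4243, 6031, 7260.1 and 5264 on controls 1 to 4 (log2 difference -1.79, SE 0.34, adjusted p = 0.00866). Cyp11a1, the first enzyme of steroid synthesis, read 6016, 4928 and 1055 on DKO 1 to 3, against 10671, 11658, 11398 and 5545 on controls 1 to 4 (log2 difference -1.58, SE 0.40, adjusted p = 0.0482). The other gene listed, Cyp17a1, an enzyme of androgen synthesis, read 565, 303 and 76.8 on DKO 1 to 3, against 8765, 543, 74.1 and 5918 on controls 1 to 4, with overlapping groups (log2 difference -2.33, SE 1.66, adjusted p = 0.572). Star and Cyp11a1 were lowest on DKO 3, where the motile cilia genes were highest. Of 5 granulosa and 6 oocyte genes 0 were called (limma, 0 at an unadjusted p under 0.05), against 1.12% of all genes called higher and 0.951% lower. Their medians were 0.07 and 0.40.

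**Figure D5:**
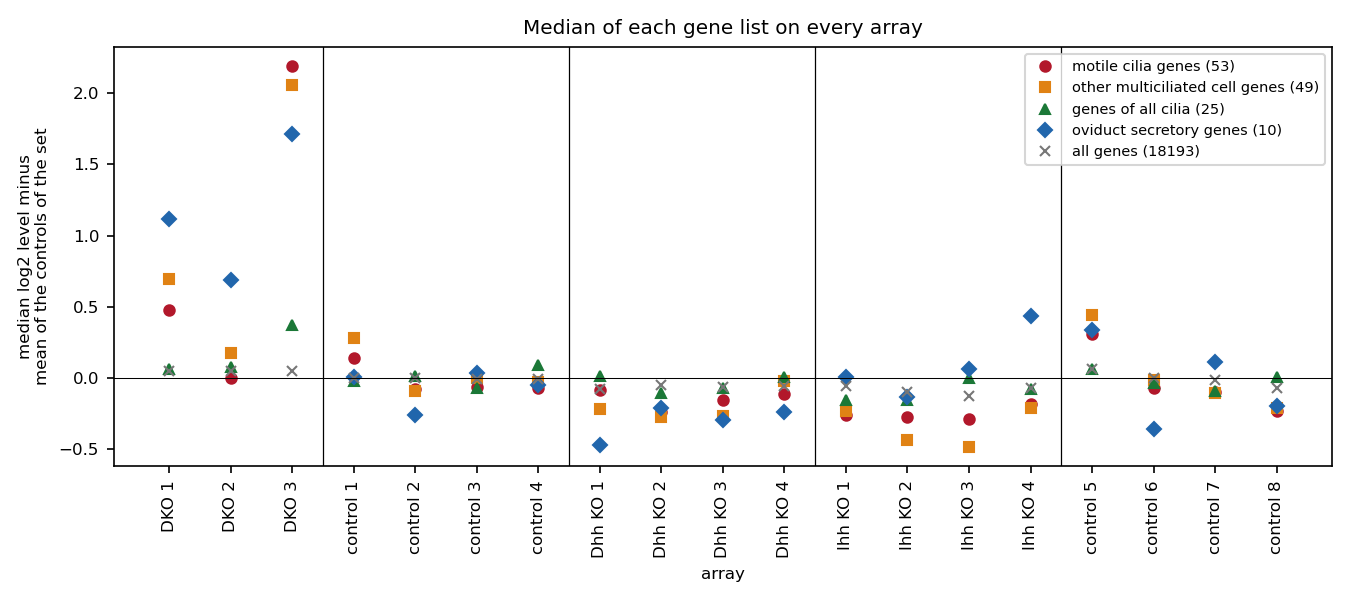
Median log2 level of each gene list minus the mean of the controls of the same set, 1 symbol per list and array. The motile cilia genes and the other multiciliated cell genes reach 2.19 and 2.06 on DKO 3, genes of all cilia 0.37, and the secretory genes 1.71; on the single knockouts the motile cilia genes lie between -0.29 and -0.08.

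In single knockouts, which share controls 5 to 8, the motile cilia genes stood at or slightly below their controls. In Dhh KO 0 of the 53 were called (limma; 0.0% of all genes in either direction), with 1 higher and 2 lower at an unadjusted p under 0.05, against 3.31% and 6.87% of all genes. In Ihh KO 0 were called, against 0.0% of all genes higher and 0.0385% lower, with 0 higher and 6 lower at an unadjusted p under 0.05, against 4.11% and 12.5%. The median log2 difference was -0.13 in Dhh KO and -0.31 in Ihh KO, where those of all genes were -0.06 and -0.08. By array the median lay between -0.24 and -0.08 on Dhh KO and between -0.29 and -0.18 on Ihh KO, against 0.31, -0.07, -0.10 and -0.23 on controls 5 to 8, so that control 5 raises the level the knockouts are set against. Above every control stood 3, 7, 4 and 5 genes on Dhh KO 1 to 4, against 14.3%, 15.7%, 14.4% and 16.7% of all genes, and 3, 6, 3 and 3 on arrays labelled Ihh KO 1 to 4, against 14.6%, 15.6%, 20.6% and 15.3%. Without control 5 the medians were 0.02 in Dhh KO and -0.22 in Ihh KO. The array labelled Ihh KO 4 had a median of -0.18, and without it the median of the Ihh KO comparison was -0.28. It then called 0 of the 53, against 0.055% of all genes higher and 0.341% lower, with 0 higher and 7 lower at an unadjusted p under 0.05, against 4.98% and 12.4%.

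Foxj1 read 7.21, 13.4, 8.74 and 5.67 on Dhh KO 1 to 4 and 31.4, 4.46, 6.13 and 35.3 on arrays labelled Ihh KO 1 to 4, against 114, 22.9, 32.1 and 5.79 on controls 5 to 8. Dynlrb2 read 31.3, 33.4, 48.0 and 38.7 on Dhh KO 1 to 4 and 59.8, 29.5, 33.6 and 29.1 on arrays labelled Ihh KO 1 to 4, against 280.3, 70.2, 66.1 and 38.5 on controls 5 to 8. Control 5 was the highest of the 12 arrays of this set for both genes. Ovgp1 read 25.6, 46.4, 23.3 and 32.8 on Dhh KO 1 to 4 and 28.8, 47.2, 270.1 and 268 on arrays labelled Ihh KO 1 to 4, against 560.3, 40.6, 49.2 and 39.5 on controls 5 to 8. Ovgp1 was thus also highest on control 5, and Ihh KO 3 and the array labelled Ihh KO 4 were above the other controls, while Foxj1 was low on Ihh KO 3. Pax8 read 35.4, 10.2, 31.5 and 45.7 on Dhh KO 1 to 4 and 39.7, 4.91, 19.3 and 16.9 on arrays labelled Ihh KO 1 to 4, against 55.0, 27.2, 29.6 and 22.9 on controls 5 to 8. Tppp3 read 267, 217, 146 and 219 on Dhh KO 1 to 4 and 244, 156, 228 and 76.5 on arrays labelled Ihh KO 1 to 4, against 476, 218, 210.5 and 201 on controls 5 to 8, highest on control 5. Ccno read 327, 339, 348 and 362 on Dhh KO 1 to 4 and 255, 288, 353 and 368 on arrays labelled Ihh KO 1 to 4, against 421, 251, 365 and 464 on controls 5 to 8, where the groups overlapped.

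Among the dynein motors, Dnah2 read 352, 363, 90.4 and 247 on Dhh KO 1 to 4 and 46.5, 39.7, 234 and 102 on arrays labelled Ihh KO 1 to 4, against 516, 133, 158 and 382 on controls 5 to 8. Its log2 difference in Ihh KO was -1.54 (SE 0.65, adjusted p = 0.246), and -1.63 (adjusted p = 0.248) without the array labelled Ihh KO 4. Controls 1, 4, 5 and 8, which include matched arrays of both sets, read 382 to 584 while the other controls read 90.9 to 158. Dnah5 read 51.4, 19.7, 18.2 and 51.1 on Dhh KO 1 to 4 and 29.0, 30.8, 26.4 and 32.7 on arrays labelled Ihh KO 1 to 4, against 65.0, 32.2, 34.2 and 22.9 on controls 5 to 8. Dnah6 read 101, 63.5, 76.5 and 83.3 on Dhh KO 1 to 4 and 87.9, 90.03, 89.1 and 108 on arrays labelled Ihh KO 1 to 4, against 168, 189, 102 and 74.8 on controls 5 to 8. Neither knockout left the controls' range as a group for these motors, though single arrays fell below it. Dnah11 read 716, 684, 768 and 825 on Dhh KO 1 to 4 and 708, 595, 551 and 727 on arrays labelled Ihh KO 1 to 4, against 1021, 717, 554 and 1041 on controls 5 to 8. Dnaic1 read 6.77, 5.58, 12.02 and 21.7 on Dhh KO 1 to 4 and 14.6, 16.6, 20.7 and 0.751 on arrays labelled Ihh KO 1 to 4, against 9.41, 19.6, 1.60 and 3.77 on controls 5 to 8. Dnaic2 read 16.3, 5.18, 24.3 and 9.69 on Dhh KO 1 to 4 and 12.02, 20.9, 5.75 and 10.7 on arrays labelled Ihh KO 1 to 4, against 21.5, 11.03, 20.5 and 12.6 on controls 5 to 8. These 3 genes overlapped between the groups. Dnal1 read 750.1, 686, 572 and 739 on Dhh KO 1 to 4 and 613, 558, 582 and 598 on arrays labelled Ihh KO 1 to 4, against 565, 555, 528 and 661 on controls 5 to 8. Dnal4 read 259, 268, 277 and 335 on Dhh KO 1 to 4 and 334, 287, 171 and 280.4 on arrays labelled Ihh KO 1 to 4, against 465, 399, 326 and 323 on controls 5 to 8. Dnal4 stood at log2 differences of -0.39 (SE 0.17, adjusted p = 0.461) in Dhh KO and -0.51 (SE 0.17, adjusted p = 0.163) in Ihh KO, the last of which was -0.54 (adjusted p = 0.165) without the array labelled Ihh KO 4.

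Of the spoke genes, Rsph14 read 26.5, 16.4, 1.91 and 6.14 on Dhh KO 1 to 4 and 24.9, 27.2, 18.6 and 25.4 on arrays labelled Ihh KO 1 to 4, against 112, 59.0, 43.0 and 20.3 on controls 5 to 8. Its log2 difference was -1.72 (SE 0.54, adjusted p = 0.324) in Dhh KO and -0.89 (SE 0.54, adjusted p = 0.411) in Ihh KO (-0.92, adjusted p = 0.441, without the array labelled Ihh KO 4), and none passed. Rsph3a read 248, 173, 256 and 226 on Dhh KO 1 to 4 and 199, 200.1, 194 and 382 on arrays labelled Ihh KO 1 to 4, against 404, 225, 205 and 119 on controls 5 to 8. Nothing near its DKO 1 and DKO 3 signals was seen on these 12 arrays. Rsph1 read 212, 403, 275 and 167 on Dhh KO 1 to 4 and 398, 354, 277 and 300.2 on arrays labelled Ihh KO 1 to 4, against 283, 333, 214 and 167 on controls 5 to 8. Tekt1 read 51.5, 107, 87.8 and 129.6 on Dhh KO 1 to 4 and 80.8, 51.8, 50.8 and 43.8 on arrays labelled Ihh KO 1 to 4, against 189, 129.6, 100.3 and 126 on controls 5 to 8. All 4 arrays labelled Ihh KO were below the controls for Tekt1, as for Tekt4 and Cfap299, a pattern found in 5.39% of all genes. On the 3 other arrays these genes and Cfap300 were below every control, against 9.23% of all genes. The log2 difference of Tekt1 in Ihh KO was -1.16 (SE 0.37, adjusted p = 0.143), and -1.06 (adjusted p = 0.193) without the array labelled Ihh KO 4. Tekt2 read 7.29, 35.1, 42.1 and 53.0 on Dhh KO 1 to 4 and 61.8, 38.7, 49.3 and 39.1 on arrays labelled Ihh KO 1 to 4, against 49.6, 21.0, 10.2 and 16.1 on controls 5 to 8, so that Ihh KO was on the upper side here. In Dhh KO, Cfap299 and Rsph9 were below every control on all 4 arrays, against 3.2% of all genes, and 0 genes were above every control on all 4 arrays of either knockout, against 1.75% of all genes in Dhh KO and 1.81% in Ihh KO.

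Cfap65 read 10.8, 3.84, 3.19 and 9.75 on Dhh KO 1 to 4 and 3.98, 5.45, 2.42 and 3.41 on arrays labelled Ihh KO 1 to 4, against 51.1, 9.68, 7.72 and 2.53 on controls 5 to 8, again with control 5 on top. Cfap53 read 61.5, 17.3, 37.4 and 22.8 on Dhh KO 1 to 4 and 7.44, 27.5, 21.5 and 29.5 on arrays labelled Ihh KO 1 to 4, against 79.2, 41.2, 40.8 and 26.0 on controls 5 to 8. The highly expressed Cfap36 read 1778, 1932, 1607 and 1634 on Dhh KO 1 to 4 and 1825, 1859, 1867 and 1732 on arrays labelled Ihh KO 1 to 4, against 1657, 1837, 1523 and 1689 on controls 5 to 8. All groups overlapped for these genes. Cfap298 read 1329.6, 1255, 1122 and 1008 on Dhh KO 1 to 4 and 1225, 1253, 1094 and 1108 on arrays labelled Ihh KO 1 to 4, against 1372, 929, 910.2 and 1416 on controls 5 to 8, where controls 5 and 8 were the highest and controls 6 and 7 the lowest.

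The difference between the double and the single knockouts was tested directly, each effect taken against the controls of its own set. The DKO effect was above the Dhh KO effect for 46 of the 53 genes, with a median of 1.00 on the log2 scale (0.12 over all genes), and 1 gene, Rsph14, was called, at 3.67 (SE 0.79, adjusted p = 0.0487), against 0.247% of all genes called higher and 0.143% lower. The effects behind it were 1.95 in DKO and -1.72 in Dhh KO. Against the Ihh KO effect the DKO effect was higher for 49 of the 53, with a median of 1.00 (0.15 over all genes). By limma 0 of the 53 were called, against 0.236% of all genes called higher and 0.11% lower. At an unadjusted limma p under 0.05, 23 of the 53 were higher and 0 lower, against 2490 and 912 of all 18193 genes. These comparisons share the DKO arrays and all 8 controls, which they treat as separate samples. With the matched controls sharing a random block (correlation 0.529), 3 genes were called for the difference from Dhh KO (Rsph14, Dynlrb2 and Cfap299) and 6 for that from Ihh KO, out of 612 and 879 called in either direction over all genes. Foxj1 stood at 3.73 (SE 1.39, adjusted p = 0.212) for the difference from Dhh KO and 3.21 (SE 1.39, adjusted p = 0.227) for that from Ihh KO. Dynlrb2 stood at 3.57 (SE 1.14, adjusted p = 0.149) and 3.60 (SE 1.14, adjusted p = 0.12) for the same differences, and Tekt1 at 2.17 (SE 0.54, adjusted p = 0.0715) for the difference from Ihh KO. Leaving out DKO 2, the DKO array at control levels, raised the counts to 5 and 6 genes, against 0.687% and 0.803% of all genes. Leaving out DKO 3 gave 0 and 0. Leaving out the array labelled Ihh KO 4 gave 0 for the difference from Ihh KO, against 0.181% of all genes called higher. At an unadjusted limma p under 0.05, 22 of the 53 were then higher and 0 lower, against 13.4% and 5.01% of all genes. Without that array the difference from Ihh KO was 3.52 for Foxj1 (adjusted p = 0.216), 3.51 for Dynlrb2 (adjusted p = 0.153) and 2.07 for Tekt1 (adjusted p = 0.101). The call of Rsph14 was lost without any 1 of controls 1 to 7, without any 1 of the Dhh KO arrays or without DKO 3.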

How the data were processed

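Ovary RNA (50 ng a sample) went through WT-Ovation Pico amplification and then biotin labelling, per the labels' protocols. Deposited values are MAS5 intensities on a linear scale (the submitters' processing notes name MAS5, version not given in the sources used here), 1 for each probe set on each array, scaled by the authors to the same mean on every array, as the values show. No detection calls were used. There are 45101 probe sets, of which 64 are Affymetrix controls and 34945 name 1 gene in the platform annotation.

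Values were taken as log2(signal + 7.018), the 10th percentile of all signals, which understates differences of low genes. A gene was read from its probe set with the highest mean, and no gene was filtered out, so all 53 were tested. limma 3.58.1 in R 4.3.3 fitted 5 array groups (DKO, controls 1 to 4, Dhh KO, Ihh KO, controls 5 to 8), with moderation following intensity and Benjamini-Hochberg adjustment over 18193 genes at 0.05. The sets were split at a BioC ratio of 0.884, and the labels do not mention them. SE is the standard error of the log2 difference. The fit was tested on simulated data.

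The motile cilia genes, other lists and rules were chosen with earlier results of these data known. The genes named with every array were Foxj1, Dynlrb2, per family the 2 highest and the 2 with the smallest p in DKO, and every called gene. Genes of other lists were named where called. Promoters came from RefSeq (GRCm38.p6). Figures were drawn with matplotlib 3.10.9 in Python 3.11.15. Alternatives were other normalizations, pseudocounts, filters, probe set rules, control groupings, moderation settings, array weights, blocks and each array left out.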

Additional observations from a re-analysis of the deposited data

Results flagged for a closer look

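On control 1 Foxj1 had a signal of 44.5, while the other 3 controls of its set read 1.39 to 2.55, and Ovgp1 had 409, against 26.0 to 40.4. On control 5, the array matched to it in the other set, Ovgp1 had 560, against 39.5 to 49.2 on controls 6 to 8. On control 4 Dnah6 had a signal of 15.8, against 74.2 to 94.9 on the others of its set, and Rsph3a had 107, against 148 to 154. The array labelled Ihh KO 4 stood above the other Ihh KO arrays for Dnah6, with 108 against 87.9 to 90.03, and for Rsph3a, with 382 against 194 to 200.1. Each of these arrays lies apart from its group by Dixon's test, which chance alone passes in about 5% of groups of 4. The 19 named genes were looked at in several such groups, so some of these arrays are expected by chance.

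The tested difference between the DKO and the Dhh KO effects of Rsph14 was 3.67 on the log2 scale (limma adjusted p = 0.0487), and against the Ihh KO effect it was 2.84 (adjusted p = 0.0887). For several of the 19 named genes every DKO array lay on one side of its control mean and every array of a single knockout on the other. Their differences did not pass the limma test. The list holds named genes only: Cfap299, for example, showed the same pattern against both knockouts. The share of all genes with this pattern was not counted. Against Dhh KO these were Dnah6 (1.88, adjusted p = 0.197), Dnal4 (0.63, adjusted p = 0.242) and Cfap65 (3.26, adjusted p = 0.156). Against Ihh KO they were Dnah5 (2.04, adjusted p = 0.242), Dnah6 (1.67, adjusted p = 0.203), Dnah11 (0.48, adjusted p = 0.341), Dnal4 (0.75, adjusted p = 0.14), Cfap53 (2.75, adjusted p = 0.0767) and Cfap65 (3.58, adjusted p = 0.104). Without the array labelled Ihh KO 4 the differences from Ihh KO were 2.87 for Rsph14 (adjusted p = 0.112), 2.08 for Dnah5 (adjusted p = 0.266), 1.74 for Dnah6 (adjusted p = 0.218), 0.54 for Dnah11 (adjusted p = 0.316), 0.78 for Dnal4 (adjusted p = 0.152), 2.90 for Cfap53 (adjusted p = 0.0842) and 3.57 for Cfap65 (adjusted p = 0.132).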

How the results depend on the processing

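The precision is limited by 3 DKO arrays that spread widely and by low signals, 29 of the 53 genes lying under the 40th percentile. The 1 gene called in DKO, Rsph3a, became 0 with a gene's probe sets averaged, with only the arrays of the set, with robust moderation, with moderation without a trend and without controls 1 and 5 together (chosen after seeing the data, as were all alternatives for the counts above every control), and 3 genes were called with all 8 controls as 1 group. Leaving out single arrays gave 0 to 9. For the DKO effect minus the Dhh KO effect the 1 gene became 0 with quantile normalization, the pseudocount at the 25th percentile (29.4), no pseudocount, filters at the 40th or 60th percentile, moderation without a trend and without controls 1 and 5. It became 9 with all 8 controls as 1 group and 3 with matched controls sharing a random block (correlation 0.529), and single arrays left out gave 0 to 5. For the DKO effect minus the Ihh KO effect the count of 0 became 9 with all 8 controls as 1 group, 6 with the random block and 1 with array weights, and 0 to 6 with single arrays left out. With all 8 controls as 1 group the controls drop out of both differences, and DKO is set directly against the single knockout. A difference between the sets of arrays then does not cancel, so those counts of 9 belong to another comparison. Otherwise the cause of the changes in these counts was not tested, beyond the fewer arrays or genes of some settings. The share of all genes called also moved with the setting. A changed count is therefore not by itself a change of these genes against that share. Both single knockouts called 0 of the 53 with each array left out.

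The median log2 difference of 0.87 in DKO was 0.70 with the larger pseudocount, 0.42 with the filter at the 40th percentile (24 genes), 0.20 with that at the 60th (11 genes), 0.71 with all 8 controls as 1 group and 0.24 to 1.41 with single arrays left out. In Ihh KO the median of -0.31 was 0.0448 with the filter at the 60th percentile and -0.39 to -0.22 with single arrays left out. In Dhh KO the median was -0.26 to 0.02 with single arrays left out, 0.04 with the filter at the 60th percentile and 0.02 with all 8 controls as 1 group. Counts above every control, 31, 8 and 46 on DKO 1 to 3, became 13, 3 and 20 of the 24 genes over the 40th percentile and 5, 1 and 9 of the 11 over the 60th. On DKO 2 the count was 5 with quantile normalization and 14 without controls 1 and 5. The shares of all genes above every control are not given for these settings, so the changed counts have no background here. Over 398 repeats of the DKO difference of the named genes 376 kept direction and side of the threshold, and 5 changed sign: Cfap36 at 0.0544 without control 1, 0.0370 without DKO 1, 0.0224 without DKO 2 and 0.0544 without controls 1 and 5 (-0.12 to 0.0544 with single arrays left out), and Cfap298 at -0.01 without DKO 3 (-0.01 to 0.37). Over all genes 377 were called in DKO, against 65 with only the arrays of the set, 124 without DKO 3, 197 without control 3, 216 without control 1, 230 without controls 1 and 5, 243 with median centring, 246 with the filter at the 60th percentile, 595 with all 8 controls as 1 group and 653 with array weights.

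The labels number DKO and control arrays alike, but same-numbered arrays correlated at 0.158, 0.274 and 0.0744 across genes, DKO 3 correlated better with control 4 (0.213), and the labels name no shared source, so the numbers were not taken as pairs. With the replicate number as a block 0 of the 53 were called in DKO (131 genes in all), and Rsph3a stood at 2.52 (limma adjusted p = 0.193). By the labels the single knockouts share no replicate numbers with controls 5 to 8. Same-numbered controls 1 to 4, of the other set, correlated with Dhh KO 1 to 4 at 0.289, 0.0975, 0.43 and 0.216 and with Ihh KO 1 to 4 at 0.0864, 0.192, -0.247 and 0.0482, so the numbers were not taken as pairs. These numbers were also carried over to the matched controls 5 to 8 as a replicate block (chosen after seeing the data). By limma 0 of the 53 were then called in either single knockout (0 genes in all). At an unadjusted p under 0.05, 5 were lower and 1 higher in Dhh KO, and 13 lower and 0 higher in Ihh KO. The share of all genes at that p is not given for this fit, so these counts have no background. In the main fit it was 6.87% lower and 3.31% higher in Dhh KO, and 12.5% and 4.11% in Ihh KO.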
